A study of Mus musculus with 6 samples.

Results

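Tight junction and epithelial polarity genes were examined in NIH3T3 cells, an established mouse embryonic fibroblast line. The set held 39 genes, each found by its symbol among the 55401 genes listed in the count tables. They were grouped by role into 4 plaque proteins, 3 MARVEL proteins, 4 junctional adhesion (JAM) and related immunoglobulin proteins, 11 claudins, 5 epithelial adhesion and keratin genes, 6 apical polarity genes, 3 basolateral polarity genes and 3 desmosome genes. Poly(A) RNA was sequenced from 6 libraries. EV cells carried the empty vector and received DMSO (n = 2), TC cells expressed the TAZ-CAMTA1 fusion and received DMSO (n = 1), and TC+ATA cells expressed the same fusion and received 10 µM aurintricarboxylic acid (ATA) for 48 h (n = 3). TAZ-CAMTA1 is the oncogenic fusion of a vascular sarcoma and drives TEAD-dependent transcription, and ATA was studied as a disruptor of TAZ-TEAD binding. EV cells with ATA were not analysed here, and the transgene itself was not measured here.

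Tight junctions seal the space between neighbouring epithelial or endothelial cells. Claudins form the strands, MARVEL proteins such as occludin and the JAM proteins join them at the membrane, and plaque proteins such as ZO-1 and cingulin tie the strands to actin. The position of the junction along the lateral membrane is set by polarity complexes, Crumbs and PAR on the apical side and Scribble on the basolateral side. Fibroblasts do not form epithelial sheets, but they use many polarity proteins during migration.

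Library totals ran from 58471484 to 74413193 counts (median 71053010), so that 3 counts stood for 0.0393 to 0.0528 CPM (counts for each 1000000 of the library total after TMM scaling). The 2 EV libraries differed more from each other (chi-square per degree of freedom 61.3) than any pair of TC+ATA libraries did (5.86 to 6.61). The labels do not say that libraries of a group came from separate cultures, so p-values measure only the spread between these samples. TC had 1 library, and its spread was taken from the other groups. All 10 fibroblast markers had counts in every library, whereas 3 to 6 of 10 epithelial markers were at 0 and their summed level stayed between 1.40 and 4.01 CPM. In TC versus EV, 4 of the fibroblast markers were called lower (Pdgfra, Thy1, Dcn and Lum, log2 fold changes of -1.20, -1.47, -2.07 and -1.27) and 2 higher (Col1a1 and Vim, 0.53 and 0.64). The epithelial sum was 1.40 to 2.14 CPM in EV, 3.83 CPM in TC and 2.59 to 4.01 CPM in TC+ATA. Krt14 made up most of it, at 1.97 and 1.19 CPM in EV, 3.36 CPM in TC and 2.26 to 3.45 CPM in TC+ATA. It was the only epithelial marker called higher in TC versus EV (log2 fold change 1.09, SE 0.35, edgeR adjusted p = 0.0486). The endothelial sum over 8 markers was 2.11 to 3.01 CPM, 4.31 CPM and 3.67 to 4.5 CPM in the same order, and the macrophage sum over 6 markers was 9.39 to 9.40 CPM, 11.9 CPM and 13.4 to 17.6 CPM. Lyz2 accounted for the macrophage rise, since the other 5 markers summed to 8.90 to 9.14 CPM in EV, 6.25 CPM in TC and 4.43 to 9.07 CPM in TC+ATA, and Csf1r was called lower in TC+ATA versus EV (log2 fold change -1.27). The part of these shifts in the results was not tested. In bulk RNA, fewer expressing cells and less RNA per cell cannot be told apart.

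To find which junction and polarity genes NIH3T3 fibroblasts lack, EV levels were first placed in classes. A gene was called silent with at most 3 counts in each EV library, trace below a mean of 1 CPM, low from 1 to below 5 CPM and expressed from 5 CPM, where levels are scaled by TMM factors. By these limits 11 members were silent, 13 trace, 2 low and 13 expressed. Of all listed genes 63.2% were silent by the same limit.

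The silent genes belonged to the membrane and epithelial groups. They were the claudins Cldn2, Cldn3, Cldn6, Cldn7, Cldn11 and Cldn23, the MARVEL proteins Marveld2 (tricellulin, found where 3 cells meet) and Marveld3, the adhesion molecule Epcam, the simple epithelial keratin Krt18 and the Crumbs gene Crb3. Of these, 7 had no count in either EV library, and Cldn3, Cldn11 and Cldn23 had none in any of the 6 libraries. At this depth 0 counts allow a level of up to 0.0393 to 0.0528 CPM, depending on the library, a limit that covers counting error only.

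Trace members included the epithelial plaque genes Cgn (cingulin, 45 and 60 counts in EV) and Tjp3 (ZO-3, 4 and 6 counts). Ocln (occludin) had 10 counts in one EV library and 0 in the other. F11r (JAM-A) had 18 and 11 counts and Esam, an endothelial adhesion protein, 21 and 38 counts. The trace claudins were Cldn1, Cldn4, Cldn9 and Cldn15, from 0 to 32 counts, and the other trace genes were Krt8, Krt19, Crb2 and Dsp, from 0 to 37 counts. Between 60.4% and 62.9% of gene counts from 1 to 20 were even in every library, and how read mates were counted is not given in the sources used here. Classes near 3 counts are therefore coarse.

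The expressed class was mostly polarity and cytoplasmic scaffold genes, with Jam3 and Cldn12 as membrane proteins. Per kilobase of exon, the highest EV mean was that of Prkci (atypical protein kinase C iota, the PAR complex kinase), at 29.4 CPM per kb. Llgl1 (20.8 CPM per kb) and Scrib (18.2 CPM per kb), both of the Scribble complex, came next. They were followed by the claudin Cldn12 (13.4 CPM per kb), Tjp1 (ZO-1, 10.8 CPM per kb), Jup (plakoglobin, 7.02 CPM per kb), Pard6b (6.28 CPM per kb) and Pard3 (4.60 CPM per kb). Below 2 CPM per kb stood Pkp2, Jam3, Cgnl1, Llgl2 and Patj. The low class held Jam2 and Krt7, the latter with 1.02 and 1.53 CPM. Cldn12 was the only claudin above 1 CPM in EV, and Crb3 the only polarity member at 0 in both EV libraries.

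**Figure D1:**
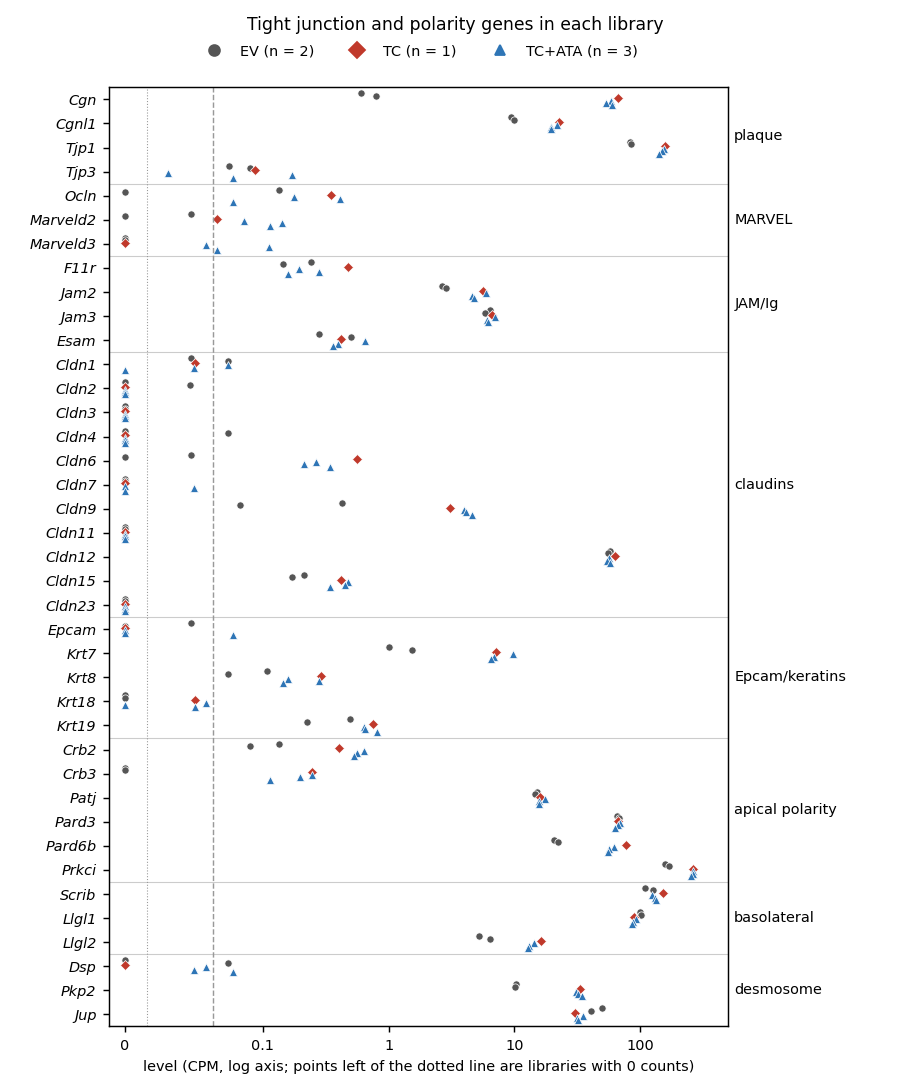
Level of each of the 39 genes (CPM, log axis) in 2 EV, 1 TC and 3 TC+ATA libraries, 1 point per library, grouped by role and spread vertically only to separate points. Points left of the dotted line are libraries with 0 counts and the dashed line marks about 3 counts; Cgn moves from 0.602 and 0.787 CPM in EV to 66.8 CPM in TC, whereas Cldn3, Cldn11 and Cldn23 stay at 0.

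The promoters of these genes were read for the E-box CAGGTG, the letters bound by the Snail and Zeb repressors of epithelial genes, and for the TEAD letters GGAATG. Windows from 250 bases before to 50 bases after each start were taken from RefSeq (GRCm38.p6), both strands were searched, and only exact matches were counted. The table held 29 of the 39 members and not Scrib, Jam2, Jam3, Cldn9, Cldn23, Pkp2, Llgl2, Marveld3, Esam or Krt19. The E-box was found for 17 of the 29 members (58.6%) against 22.6% of 27025 genes. Member windows were richer in GC (median 61% against 52.7%). Among windows within 5 percentage points of the members' median, 12 of 19 member windows (63.2%) and 23.5% of 8107 windows held the E-box. These shares count windows and not genes. Windows of the same gene can overlap, as those of Crb3 do, so a site can be counted more than once. The TEAD motif was found for 6 of 29 members (20.7%) against 16.6% of all genes, and the AP-1 letters TGANTCA for 4 (13.8%) against 8.97%. Of the 9 members with a window that were called higher in TC, 4 held the E-box and 3 held the TEAD motif. The matches describe letters only, and binding was not measured.

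The 250 bases before the start are given for 6 members, chosen after their values were seen. Of these, 5 rose in TC, and Epcam, silent in EV, is shown for comparison. Capitals mark CAGGTG or GGAATG on either strand, and each run reads 5′ to 3′ on the gene's strand.
Cgn, chr3:94786483-94786732, minus strand: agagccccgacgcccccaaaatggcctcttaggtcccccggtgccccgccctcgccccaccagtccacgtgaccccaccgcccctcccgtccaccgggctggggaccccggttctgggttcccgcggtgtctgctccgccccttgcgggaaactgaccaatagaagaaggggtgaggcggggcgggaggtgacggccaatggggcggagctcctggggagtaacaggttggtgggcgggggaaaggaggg
Crb3, chr17:57061951-57062200, plus strand: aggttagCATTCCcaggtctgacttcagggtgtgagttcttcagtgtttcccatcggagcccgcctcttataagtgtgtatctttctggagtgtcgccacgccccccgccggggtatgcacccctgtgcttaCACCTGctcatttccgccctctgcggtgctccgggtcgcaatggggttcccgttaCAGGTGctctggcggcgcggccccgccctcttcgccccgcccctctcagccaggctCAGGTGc
Cldn6, chr17:23679115-23679364, plus strand: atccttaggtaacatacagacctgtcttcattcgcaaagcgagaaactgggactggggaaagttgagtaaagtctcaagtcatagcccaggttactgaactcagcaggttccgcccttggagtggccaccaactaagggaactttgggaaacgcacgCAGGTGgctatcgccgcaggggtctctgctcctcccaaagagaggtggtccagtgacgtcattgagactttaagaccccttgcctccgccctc
Pard6b, chr2:168080754-168081003, plus strand: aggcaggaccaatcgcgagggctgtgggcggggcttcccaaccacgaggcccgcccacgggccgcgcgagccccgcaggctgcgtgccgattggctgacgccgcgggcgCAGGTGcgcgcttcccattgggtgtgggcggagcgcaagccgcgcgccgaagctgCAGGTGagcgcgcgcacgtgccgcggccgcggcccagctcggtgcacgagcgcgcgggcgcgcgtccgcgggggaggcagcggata
Krt7, chr15:101412153-101412402, plus strand: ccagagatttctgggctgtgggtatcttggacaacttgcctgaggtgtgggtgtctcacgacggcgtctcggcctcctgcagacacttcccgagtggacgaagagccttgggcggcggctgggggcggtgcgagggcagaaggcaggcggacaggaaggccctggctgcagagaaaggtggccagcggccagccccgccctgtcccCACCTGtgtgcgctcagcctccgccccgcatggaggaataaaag
Epcam, chr17:87635729-87635978, plus strand: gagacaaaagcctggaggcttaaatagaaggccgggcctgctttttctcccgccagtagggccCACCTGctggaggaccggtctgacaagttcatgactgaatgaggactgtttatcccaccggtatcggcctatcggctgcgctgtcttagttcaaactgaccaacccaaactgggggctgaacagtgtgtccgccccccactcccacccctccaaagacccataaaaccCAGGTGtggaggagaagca
The Cgn run held neither motif. Crb3 held the E-box at 3 places and the TEAD motif at 1, Pard6b and Epcam each held the E-box at 2 places, and Cldn6 and Krt7 held it at 1 place each. The TEAD match of Cldn6 began at the last base before the start and ran past it, so it is not marked. Among members called higher with a window, Cgnl1, Tjp1, Crb2 and Prkci are not shown. None of these held the E-box, and Prkci held the TEAD motif.

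To see how TAZ-CAMTA1 altered these genes, TC was compared with EV. Of 27 members with enough counts to test, 14 rose and 1 fell at an adjusted p of 0.05 (edgeR quasi-likelihood test, Benjamini-Hochberg adjustment over 18539 genes). Over all tested genes 14.8% were called higher and 13.2% lower. The limit of a log2 fold change of 2, which the study also applied, was passed by 5 members (Cgn, Cldn6, Cldn9, Krt7 and Crb3), against 2.36% of all genes, and 0 members fell past it (1.27% of all genes). The median log2 fold change of the 27 members was 1.11, against -0.03 over all tested genes. The filter on low counts asked for 0.141 CPM in at least 1 library, and Tjp3, Ocln, Cldn6, Krt8, Crb2 and Crb3 reached it only in cells with the fusion, so for these 6 a difference from EV was built in. Of the 21 members that reached it in an EV library, 11 rose and 1 fell (median log2 fold change 1.03), and 14.8% of 17152 such genes were called higher. Of 368 tested genes silent in EV, 28.0% were called higher in TC.

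Cgn had the largest fold of the plaque proteins. Its RNA stood at 0.602 and 0.787 CPM in EV, 66.8 CPM in TC, and 58.3, 53.8 and 59.8 CPM in TC+ATA. All 4 libraries with the fusion lay far above both EV libraries, and the log2 fold change in TC was 6.58 (SE 0.13, edgeR adjusted p = 4.65e-08), a 95.9-fold rise. The gene lies at chr3:94760069-94786492 on the minus strand (GRCm38). Its paralogue Cgnl1 (paracingulin, which also sits at adherens junctions) was at 9.33 and 9.98 CPM in EV, 22.7 CPM in TC and 19.5 to 21.8 CPM in TC+ATA. These groups did not overlap, and Cgnl1 rose by a log2 fold change of 1.23 (SE 0.11, edgeR adjusted p = 5.62e-05). Tjp1, the ZO-1 scaffold that binds claudins, occludin and actin, rose from 83.8 and 84.5 CPM to 158 CPM (log2 fold change 0.91, SE 0.08, edgeR adjusted p = 4.81e-05). Tjp3 stayed at 1 to 12 counts in every library. Thus 3 of the 4 plaque genes rose, against 14.8% of all tested genes.

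Per kilobase, Cgn made up 7.75% and 9.31% of the cingulin pair in EV, and 79.3% in TC. In TC+ATA its share was 77.7% to 80.0%. The predominant paralogue was Cgnl1 in both EV libraries and Cgn in all 4 libraries with the fusion.

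The membrane proteins changed in few members. Among the JAM proteins, Jam2 (JAM-B) rose from 2.67 and 2.87 CPM in EV to 5.65 CPM in TC, with 6.0, 4.60 and 4.77 CPM in TC+ATA (log2 fold change 1.03, SE 0.20, edgeR adjusted p = 0.00521). The 4 libraries with the fusion were all above EV. Jam3 (JAM-C) was measured at 5.84 to 7.0 CPM over the 6 libraries and was not called. F11r had 11 to 33 counts and Esam 21 to 38 counts, with overlapping groups and no call. The MARVEL proteins gave no call. Ocln had 24 counts in TC and 10, 29 and 4 in TC+ATA, against 10 and 0 in EV. Marveld2 had 3 counts in TC and 4, 10 and 8 in TC+ATA, and Marveld3 had 0 in TC and 2, 8 and 3 in TC+ATA. Both Marveld genes had too few counts to be tested.

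Of the 11 claudins 4 were tested and 2 rose, against 14.8% of all tested genes called higher. These were Cldn6 and Cldn9, which are neighbours on chromosome 17. Cldn6 (chr17:23679249-23682446, plus strand) and Cldn9 (chr17:23682584-23684026, minus strand) are annotated 137 bases apart with their 3′ ends facing. Cldn6 is best known from embryonic epithelia and Cldn9 from the inner ear. Cldn6 had 2 and 0 counts in EV, 39 in TC and 15, 15 and 24 in TC+ATA. Each library with the fusion was above EV, and the ratio of TC to EV levels was 42.4 (95% exact counting interval 11 to 363). The interval takes each count as a separate fragment and is too narrow if both mates of a pair were counted. The edgeR fit gave a log2 fold change of 5.23 (SE 0.98, adjusted p = 0.00386). Without the first EV library it was 8.27, and without the second 4.30, so its size rests on 2 counts. Cldn6 also reached the filter on low counts only in cells with the fusion, so a difference from EV was built in.

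Cldn9 had 32 and 5 counts in EV, 212 in TC and 225, 293 and 320 in TC+ATA. In CPM these were 0.428 and 0.0656, then 3.05, then 3.96, 4.13 and 4.60. The EV libraries differed widely from each other, and both were under every library with the fusion. Cldn9 rose by a log2 fold change of 3.63 (SE 0.54, edgeR adjusted p = 0.00117), which became 5.49 without the first EV library and 2.83 without the second. Cldn12, a claudin without the usual PDZ-binding tail, was steady at 55.0 to 62.7 CPM and was not called. Its share of the claudin level per kilobase was 97.0% and 98.7% in EV, 84.9% in TC and 79.3% to 81.0% in TC+ATA. The share of Cldn9 was 0.339% to 2.13%, 12.1% and 16.7% to 18.6%. Cldn15, which forms cation pores in gut epithelium, had 13 to 32 counts and was not called. The other 7 claudins (Cldn1, Cldn2, Cldn3, Cldn4, Cldn7, Cldn11 and Cldn23) had at most 4 counts in any library, which includes the barrier claudins of most simple epithelia.

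Krt7, a keratin of simple and ductal epithelia, was the only one of the 5 epithelial adhesion and keratin genes to rise. Of the 5, 3 were tested, and 14.8% of all tested genes were called higher. The values of Krt7 were as follows. It measured 1.02 and 1.53 CPM in EV, 7.19 CPM in TC and 9.77, 6.94 and 6.53 CPM in TC+ATA. All 4 libraries with the fusion were above both EV libraries, and the log2 fold change was 2.49 (SE 0.29, edgeR adjusted p = 0.000235). Krt8 and Krt18 are the usual partner keratins of simple epithelia. Krt8 had 8 and 4 counts in EV, 20 in TC and 9 to 20 in TC+ATA, and Krt18 had at most 2 counts in any library. Krt19 had 37 and 17 counts in EV, 52 in TC and 36, 46 and 56 in TC+ATA, without a call. Epcam was at 0 in TC and at 0, 0 and 4 counts in TC+ATA. Krt7 was thus the one keratin of this group with a call.

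**Figure D2:**
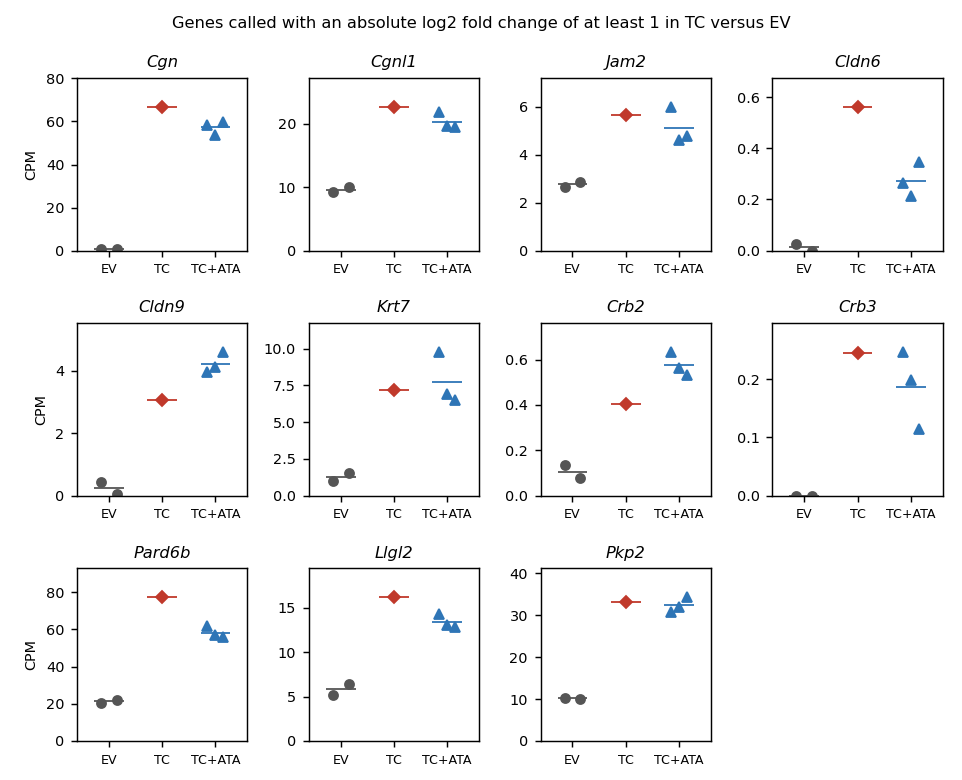
Levels in CPM (linear axes from 0, each with its own scale) of the 11 members called with an absolute log2 fold change of at least 1 in TC versus EV, 1 point per library with a bar at the group mean (EV n = 2, TC n = 1, TC+ATA n = 3). In each panel all TC and TC+ATA points lie above both EV points; for Pard6b the TC+ATA points (55.8 to 61.6 CPM) lie between EV (20.5 and 22.1 CPM) and TC (77.3 CPM).

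Of 6 apical polarity genes 4 were called higher in TC, against 14.8% of all tested genes. Among these 4, Crb2 and Crb3 reached the filter on low counts only in cells with the fusion. Pard6b, the PAR6 adaptor that couples CDC42 to atypical protein kinase C, went from 20.5 and 22.1 CPM in EV to 77.3 CPM in TC, with 61.6, 57.0 and 55.8 CPM in TC+ATA. The groups did not overlap, and the log2 fold change was 1.86 (SE 0.09, edgeR adjusted p = 1.64e-06). Prkci, its kinase partner, rose from 158 and 169 CPM to 262 CPM (log2 fold change 0.69, SE 0.08, edgeR adjusted p = 0.000286). The scaffold Pard3 was measured at 66.0 and 67.5 CPM in EV and 67.0 CPM in TC and was not called. Patj, the scaffold of the Crumbs complex, had 15.1 and 14.5 CPM in EV and 16.0 CPM in TC, also without a call.

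Crb3, the Crumbs protein of most epithelia, was undetected in EV. It had 0 and 0 counts in EV, 17 in TC and 14, 14 and 8 in TC+ATA. Against a floor of 3 counts per EV library, the Crb3 level was 6.17-fold higher in TC and 4.69-fold higher in TC+ATA (edgeR adjusted p = 0.00955 and 0.00650). These ratios leave out the counting error of TC and TC+ATA and take each count as a separate fragment, so they are not lower bounds. Crb3 reached the filter on low counts only in cells with the fusion, so a difference from EV was built in. Levels with the fusion remained low, at 0.115 to 0.246 CPM. Crb2, a paralogue with a large extracellular part, had 10 and 6 counts in EV, 28 in TC and 36, 40 and 37 in TC+ATA. Its log2 fold change was 1.91 (SE 0.58, edgeR adjusted p = 0.0369), and the call was lost by DESeq2 (adjusted p = 0.0707) with the 2 groups alone (edgeR adjusted p = 0.135) and when the second EV library or any TC+ATA library was left out (edgeR adjusted p = 0.060 to 0.0834). Crb2 is also 1 of the 6 members for which the filter built a difference in.

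The PAR6 family changed in composition. Per kilobase, Pard6b held 24.8% and 28.0% of the level of the 3 genes in EV, 66.0% in TC and 55.0% to 57.3% in TC+ATA. The paralogues Pard6a and Pard6g, chosen after their values were seen, fell in TC with log2 fold changes of -0.94 (SE 0.16, edgeR adjusted p = 0.00239) and -0.42 (SE 0.09, edgeR adjusted p = 0.00938). The summed level of the family was 23.2 and 24.4 CPM per kb in EV, 34.5 CPM per kb in TC and 29.5 to 31.6 CPM per kb in TC+ATA. Pard6a stood at 3.27 CPM per kb in TC and 4.22 to 4.51 in TC+ATA, and Pard6g at 8.44 and 8.75 to 9.28. Neither was called in TC+ATA versus TC (edgeR), so the Pard6b share under ATA also reflects the levels of these paralogues.

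Of the 3 basolateral genes, Llgl2 and Scrib rose, against 14.8% of all tested genes called higher. Llgl2, the lethal giant larvae paralogue of epithelia, measured 5.24 and 6.39 CPM in EV, 16.2 CPM in TC and 14.4, 13.1 and 12.9 CPM in TC+ATA (log2 fold change 1.48, SE 0.14, edgeR adjusted p = 7.64e-05). Scrib measured 109 and 126 CPM in EV, 151 CPM in TC and 124, 132 and 135 CPM in TC+ATA. The lowest TC+ATA library lay within the EV values. The log2 fold change of Scrib in TC was 0.36 (SE 0.10, edgeR adjusted p = 0.0252), and the call was lost with library totals in place of TMM (adjusted p = 0.175), with the 2 groups alone (0.151) and without any of the TC+ATA libraries (adjusted p = 0.0504 to 0.0650). Llgl1 measured 99.9 and 103 CPM in EV, 89.6 CPM in TC and 93.6, 87.5 and 86.7 CPM in TC+ATA, without a call in TC. Llgl1 remained the main paralogue, while the share of Llgl2 per kilobase was 5.0% and 5.88% in EV, 15.4% in TC and 13.0% to 13.3% in TC+ATA.

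**Figure D3:**
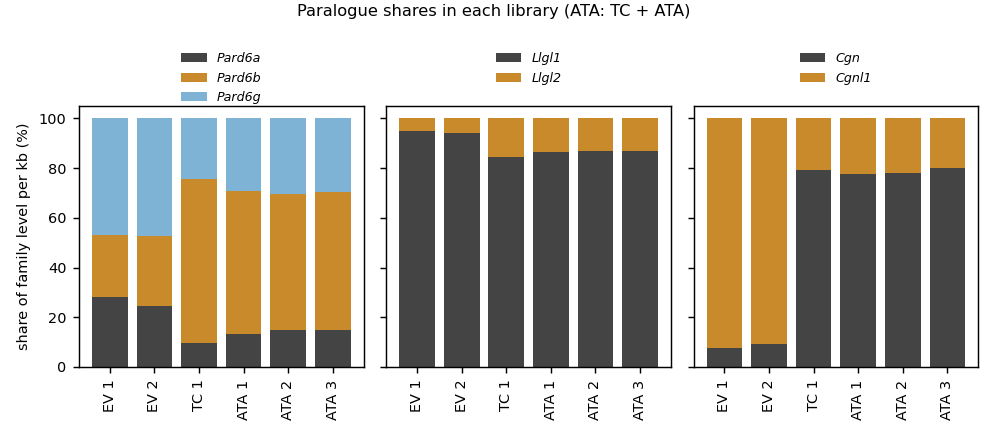
Share (%) of each paralogue in the summed level per kilobase of its family, stacked to 100 for each library (ATA marks TC+ATA). Pard6b went from 24.8% and 28.0% in EV to 66.0% in TC, Llgl2 from 5.0% and 5.88% to 15.4% and Cgn from 7.75% and 9.31% to 79.3%.

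The desmosome genes moved in opposite directions. Pkp2 (plakophilin 2, a desmosomal plaque protein) rose from 10.4 and 10.1 CPM in EV to 33.1 CPM in TC, with 30.8, 31.9 and 34.3 CPM in TC+ATA (log2 fold change 1.69, SE 0.10, edgeR adjusted p = 4.55e-06). Jup (plakoglobin, shared by desmosomes and adherens junctions) fell, from 49.8 and 40.5 CPM to 30.6 CPM, with 35.1, 31.3 and 32.1 CPM in TC+ATA (log2 fold change -0.56, SE 0.13, edgeR adjusted p = 0.0129). No library with the fusion reached the lower EV value. Dsp (desmoplakin, which anchors keratin to the desmosome) had at most 4 counts in any library. Of the 3 desmosome genes, Pkp2 and Jup were measured well above the floor and Dsp was near 0 in all groups.

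Read by class, the 14 rises comprised both tested silent genes, 3 of 10 tested trace genes, both low genes and 7 of 13 expressed genes. The share called higher was 14.8% of all tested genes and 28.0% of tested genes silent in EV. The silent genes Cldn6 and Crb3 and the trace gene Crb2 reached the filter only in cells with the fusion. Their difference from EV was therefore built in. The other 9 silent members had at most 10 counts in any library. All 4 libraries with the fusion lay above both EV libraries for 17 of the 27 tested members, against 25.4% of all tested genes. Cldn15, Krt8, Krt19 and Patj were separated in this way without a call, and Scrib was called without being separated. Of the 21 members that reached the filter in an EV library 13 were separated, against 24.0% of such genes. By mean level per kilobase, Cgn ranked 19 among the members in EV and 7 in TC, at 11.1 CPM per kb, and Pard6b ranked 7 in EV and 3 in TC.

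To ask whether ATA turned these levels back, TC+ATA was compared with TC. No member was called in either direction (edgeR, Benjamini-Hochberg), against 0.426% of all genes called higher and 0.156% lower. Over all genes these were 79 and 29 calls, which went to 7 and 3 without the third TC+ATA library and to 808 and 608 without the second EV library. At an unadjusted p of 0.05, 1 member was lower and 0 were higher. The TC library is the same one that was compared with EV, so the comparisons are not independent. The member below that p was Pard6b, with 77.3 CPM in TC and a mean of 58.1 ± 3.04 CPM (SD, n = 3) in TC+ATA. Its log2 difference was -0.41 (SE 0.09, edgeR adjusted p = 0.0946), a level of 0.751 times that in TC. Pard6b passed the adjusted threshold by DESeq2 (adjusted p = 0.0244), and in edgeR without the filter on low counts (0.0138), without either EV library (0.00166 and 0.00191) or with the 2 groups alone (0.00154). Scrib passed it in the last 3 of these fits (adjusted p = 0.0313 to 0.0419), against 0.532 with all libraries.

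All 3 TC+ATA libraries were below TC for 10 of the 27 tested members, and all 3 were above it for 3, against 32.7% and 30.5% of all tested genes. Those below were Cgn, Cgnl1, Tjp1, F11r, Cldn6, Cldn12, Krt8, Pard6b, Scrib and Llgl2. Those above were Cldn9, Crb2 and Jup. Cgn measured 57.3 ± 3.13 CPM (SD, n = 3) under ATA against 66.8 CPM in TC, a log2 difference of -0.22 (SE 0.10, edgeR adjusted p = 0.522). The corresponding values were -0.27 (SE 0.13) for Llgl2, -0.16 (SE 0.11) for Cgnl1 and -0.10 (SE 0.08) for Tjp1. Cldn6 had the widest error of the called genes with counts in EV, at -1.03 (SE 0.68). For Pkp2 and Prkci the differences were -0.03 (SE 0.09) and -0.01 (SE 0.08). The median over the 27 members was -0.10, and 0.00 over all genes. With 1 TC library, a uniform shift of that library and an effect of ATA cannot be told apart.

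**Figure D4:**
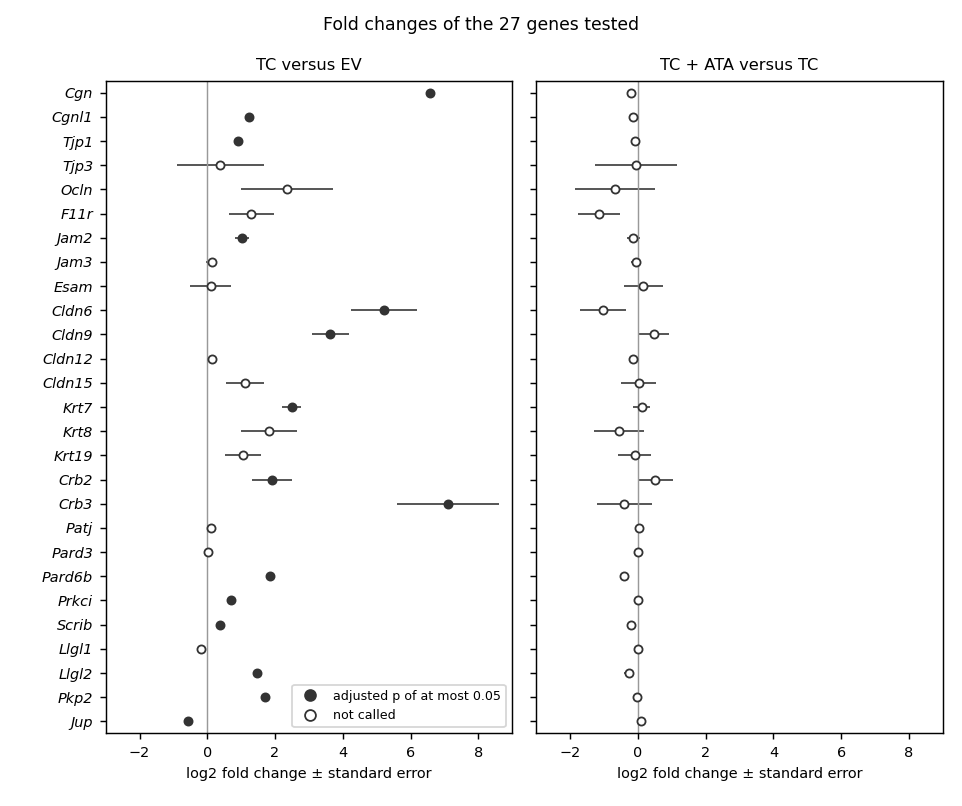
Log2 fold change with its standard error for the 27 tested members in TC versus EV (left) and TC+ATA versus TC (right), on 1 scale, with filled points at an adjusted p of at most 0.05 (edgeR). On the left 14 points are filled above 0 and Jup below it, and on the right no point is filled; the Crb3 value on the left is a fitted estimate against 0 counts.

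Compared with EV, 13 members were still higher under ATA. In TC+ATA versus EV, these 13 were called higher and 2 were called lower (edgeR, Benjamini-Hochberg), against 18.0% and 18.6% of all tested genes, and 6 passed the log2 limit of 2 (2.80% of all genes). This comparison shares its EV libraries with TC versus EV, so the calls are not independent. Cldn6, Crb2 and Crb3, counted in both the 13 and the 6, reached the filter on low counts only in cells with the fusion. For these genes a difference from EV was built in. The 13 were Cgn, Cgnl1, Tjp1, Jam2, Cldn6, Cldn9, Krt7, Crb2, Crb3, Pard6b, Prkci, Llgl2 and Pkp2. Scrib was not among them (log2 fold change 0.15, SE 0.08, edgeR adjusted p = 0.154; 0.00175 without the second EV library). Cgn stood at 6.36 (SE 0.12), Cldn9 at 4.10 (SE 0.47), Krt7 at 2.6 (SE 0.24), Crb2 at 2.42 (SE 0.47), Pkp2 at 1.66 (SE 0.08) and Pard6b at 1.44 (SE 0.07) on the log2 scale. In the same order the log2 fold changes of TC were 6.58, 3.63, 2.49, 1.91, 1.69 and 1.86. Jup was lower at -0.46 (SE 0.10, edgeR adjusted p = 0.00512). Llgl1 was called lower at -0.18 (SE 0.06, edgeR adjusted p = 0.0460), a call lost with RLE size factors (adjusted p = 0.0608), in DESeq2 (0.0998) and without any 1 of the TC+ATA libraries (0.0701 to 0.185). Of tested genes silent in EV, 41.6% were called higher in TC+ATA.

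Other genes of the same structures, from lists drawn up with earlier results of these data known, gave the setting, and their counts are read against the 14.8% of all tested genes called higher and the 13.2% called lower. Of 29 other junction genes 22 were tested, and 9 rose and 3 fell in TC versus EV (median log2 fold change 0.39). Cldn18, not called, reached the filter on low counts only in cells with the fusion, so its difference from EV was built in. Nectin2, an adhesion receptor of adherens junctions, rose from 62.0 and 56.7 CPM to 239 CPM (log2 fold change 2.01, SE 0.08, edgeR adjusted p = 9.19e-07). Clmp, a relative of the JAM proteins, fell from 61.0 and 67.1 CPM to 19.6 CPM (log2 fold change -1.71, SE 0.11, edgeR adjusted p = 5.99e-06) and was named after its value was seen. Of 18 other polarity genes 16 were tested, and 2 rose and 3 fell (median 0.17), near those shares. Of 21 other desmosome and keratin genes 11 were tested, and 5 rose and 0 fell. Their median log2 fold change was 1.37, or 1.15 with genes at 0 in EV read against a floor of 3 counts. Krt20, with 0 counts in EV, reached the filter on low counts only in cells with the fusion, so its difference from EV was built in. Krt80 rose from 6.91 and 6.89 CPM to 40.7 CPM (log2 fold change 2.56, SE 0.09, edgeR adjusted p = 5.92e-07), and Krt15 from 0.0802 and 0.223 CPM to 0.951 CPM (log2 fold change 2.63, SE 0.51, edgeR adjusted p = 0.00449).

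Among 18 regulators of epithelial genes 10 were tested and 1 was called higher, again near the share of all genes. Their median log2 fold change was 1.09, against -0.03 over all tested genes. Cdh1 (0 and 0.0525 CPM in EV) and Rab25 (0.107 and 0.0525 CPM in EV) reached the filter on low counts only in cells with the fusion. For these a difference from EV was built in, and the 1387 genes of all that did so had a median of 1.28. The median of the list is therefore not read as a shift of the regulators. The regulator called was Klf5 (log2 fold change 1.15, SE 0.10, edgeR adjusted p = 3.67e-05). All 7 mesenchymal transition genes were tested. Snai2 fell from 36.1 and 40.6 CPM to 13.7 CPM (log2 fold change -1.49, SE 0.13, edgeR adjusted p = 4.09e-05), and Snai1 and Twist2 fell with -0.93 (SE 0.11) and -0.91 (SE 0.14). Zeb2, Twist1 and Cdh2 rose with 0.71 (SE 0.11), 0.31 (SE 0.08) and 0.99 (SE 0.08). The mesenchymal genes therefore moved both ways, and their list had a median of -0.16. Klf5 and the 6 mesenchymal genes were named after their values were seen. In TC+ATA versus TC, 0 of the 66 tested genes of these lists were called by edgeR, with 3 higher and 4 lower at an unadjusted p of 0.05, and DESeq2 called Snai1 higher.

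Some member exons overlap exons of a gene on the other strand, and the use of strand in counting is not given in the sources used here. The overlap was 1159 of 3200 exon bases for Jam3, 499 of 9659 for Dsp, 113 of 6698 for Crb2, 101 of 1958 for Krt8, 77 of 7049 for Krt7, 64 of 4862 for Llgl1, 40 of 3714 for Tjp3, 40 of 1259 for Cldn3 and 14 of 1564 for Crb3. Levels of these genes may hold reads of the partner.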

How the data were processed

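Poly(A) RNA from 6 NIH3T3 libraries (2 EV, 1 TC, 3 TC+ATA, grouped by their labels) was analysed. The authors aligned paired-end reads to GRCm38.p6 with HISAT2 (version 2.2.1 in the submitters' processing notes) in Galaxy and assigned them to genes with featureCounts. The deposited values are unscaled counts, 1 whole number for each gene and library. The annotation release, strand setting and treatment of read mates and multi-mapped reads are not given in the sources used here. Reads shared between near-identical copies can therefore have been lost or split.

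From the counts, edgeR 4.0.16 in R 4.3.3 was run on all 6 libraries (TMM, filterByExpr with a minimum count of 10, glmQLFit, glmQLFTest, Benjamini-Hochberg over 18539 genes), with limma 3.58.1 loaded by edgeR and DESeq2 1.42.0 as an alternative. The test was also run on simulated counts with the same spread set for every gene and group. That check does not cover the unequal spread of the groups in these data. Standard errors came from the F statistic, and CPM used TMM-scaled totals. Symbols, positions and exon lengths came from GENCODE M21. The members and all other lists were chosen with earlier results of these data known. All members were named. Values in every library were given for members called in TC versus EV with an absolute log2 fold change of at least 1, for those called in TC+ATA versus TC, and for silent genes with over 10 counts in a library with the fusion. From the other lists, called genes with an absolute log2 fold change of 2 or more were named. Same-numbered EV and TC+ATA libraries did not deviate together (r = -0.0290 and -0.0861). Alternatives were 2 other scalings, 2 other filters, DESeq2, the compared groups alone, a replicate block and leaving out each replicated library. One gene of the other lists is not reported here by name.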

Additional observations from a re-analysis of the deposited data

How the results depend on the processing

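In 13 fits, counting the one reported, 10 members were called higher in TC versus EV every time (Cgn, Cgnl1, Tjp1, Jam2, Cldn9, Krt7, Pard6b, Prkci, Llgl2 and Pkp2), and Jup was called lower every time. The number called higher was 14 as reported, 11 with at least 1 CPM in at least 2 libraries, which left Cldn6, Crb2 and Crb3 untested, 12 with only the 2 groups compared, without Crb2 and Scrib, and 12 to 16 when 1 library was left out. The 16 were reached without EV replicate 1, where Ocln and Krt19 were also called. The number called lower went from 1 to 2 with library totals without TMM factors and ran from 1 to 2 when 1 library was left out, the second gene being Llgl1. The filter at 1 CPM took the count past the log2 limit of 2 from 5 to 3. In TC+ATA versus TC the number called lower went from 0 to 1 without a filter or with DESeq2 and to 2 with only the 2 groups compared, and ran from 0 to 2 when 1 library was left out; 2 was reached without either EV library. In TC+ATA versus EV it went from 2 to 1 with RLE size factors, the replicate block or DESeq2, and ran from 1 to 2 when 1 library was left out. The labels give only replicate numbers, and whether same-numbered libraries shared a batch was not known. With the replicate block, 13 members were called higher in TC versus EV and Crb2 was not (adjusted p = 0.173). Small differences in TC+ATA versus TC changed sign, Prkci to 0.0073 with library totals and Crb3 to 0.0028 with the replicate block. When 1 library was left out they ran from -0.093 to 0.22 for Krt7, from -0.022 to 0.0040 for Prkci and from -0.076 to 0.0022 for Pkp2, with the change of sign without TC+ATA replicate 1 for Krt7 and Pkp2 and without TC+ATA replicate 3 for Prkci. A limit of a mean under 0.1 CPM made 17 members silent in EV and a limit under 1 CPM made 24, against 11.

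Over all genes, library totals gave 2072 higher and 3159 lower calls in TC versus EV in place of 2735 and 2456, with the median log2 fold change at -0.13 in place of -0.03, and the replicate block gave 1717 and 1467. In TC+ATA versus TC, 79 higher and 29 lower calls became 795 and 633 with only the 2 groups compared, 236 and 84 with DESeq2, 242 and 108 without a filter and 32 and 8 with the replicate block. Without 1 TC+ATA library they were 28 and 12, 21 and 7, and 7 and 3 (replicates 1, 2 and 3 in turn), and without EV replicate 1 or 2 they were 707 and 762, and 808 and 608. The cause was not tested. Few counts limit the precision of Cldn6, Crb2 and Crb3, and the single TC library limits that of every comparison with TC.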
